A study of Mus musculus with 16 samples.

Results

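The respiratory chain and the ATP synthase are described here by their nuclear-encoded genes in cultured mouse macrophages. The genes were chosen by symbol among protein-coding genes of the GENCODE M21 annotation, from the prefixes Nduf, Uqcr, Cox4 to Cox8 and Atp5 and the genes beginning with Sdha, Sdhb, Sdhc or Sdhd. Ndufs5 was left out by the rule. FPKM are read fragments counted relative to exon length and to a depth that the authors' normalization set for each library. Of the 97 genes found by symbol, 91 reached 1 FPKM in at least 4 of 16 libraries. In the series, 11654 genes did so. These 91 comprised 43 genes of complex I, 7 of complex II, 8 of complex III, 16 of complex IV and 17 of complex V, with assembly factors counted under their complex.

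Complexes I and II pass electrons from NADH and succinate to ubiquinone, complex III hands them to cytochrome c, and complex IV passes them to oxygen. Complexes I, III and IV pump protons across the inner mitochondrial membrane, and complex V, the ATP synthase, lets them flow back through its membrane part FO to drive ATP synthesis in its catalytic part F1. A small set of the subunits is encoded by mitochondrial DNA and the others by nuclear genes, and macrophages are known to shift the balance between this pathway and glycolysis with their activation state.

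The study measured RNA in bone marrow-derived macrophages of FVB/N mice, grown from marrow for 5 to 7 days in medium with L929 cell supernatant. The 4 groups were FOXO3-/- cells with dexamethasone, FOXO3-/- cells with vehicle, wild-type cells with dexamethasone and wild-type cells with vehicle, with 4 libraries each. Dexamethasone, a synthetic glucocorticoid, was given at 100 nM for 24 h, and the vehicle was DMSO. The groups are called KO and WT after their labels. The labels do not say if the 4 libraries of a group came from separate mice or cultures. All p-values below are thus relative to a spread among libraries that could be technical.

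Each library held 16886614 to 20584499 reads on genes. All 10 macrophage markers passed the filter, and 6 of 6 glucocorticoid-induced genes listed as a check were higher with dexamethasone in both genotypes. Foxo3 itself averaged 24.5 ± 1.44 FPKM in KO dexamethasone libraries and 23.8 ± 0.635 FPKM in KO vehicle libraries, against 23.2 ± 1.07 FPKM in WT dexamethasone libraries and 24.7 ± 1.72 FPKM in WT vehicle libraries (SD, n = 4 each). Its whole-gene level therefore did not separate the genotypes (2-sided exact permutation p = 0.371 in vehicle and 0.171 with dexamethasone, smallest possible p 0.0286). No source used here says which part of the gene was deleted, so this value does not check the labels, and each direction between genotypes below rests on them. In the stromal marker Col1a1, KO vehicle replicate 4 (95.8 FPKM, others up to 4.76), WT dexamethasone replicate 4 (19.1 FPKM, others from 159) and WT vehicle replicate 3 (6.77 FPKM, others from 124) stood apart from their groups.

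Mean levels of the 91 genes over all libraries ran from 0.760 to 311 FPKM, with a median of 29.8. The 6 highest were complex IV and V genes: Cox8a (311 FPKM), Cox6a1 (299), Cox4i1 (223), Atp5a1 (199), Cox6b1 (146) and Atp5b (139). Most genes varied little, with a median coefficient of variation of 15.2% over the 16 libraries. Tissue-specific isoforms were low: Cox4i1, the general form of subunit 4, supplied at least 99.5% of the Cox4 FPKM in every group mean, and Cox6a1 at least 99.4% of the Cox6a FPKM. Of the 91 genes, 84 reached 1 FPKM in all 16 libraries. Just inside the filter lay Ndufb2 (mean 1.03 FPKM), Cox6a2 (1.08), Sdhaf1 (0.977) and Cox6b2 (0.760), and just outside it Cox4i2 (0.433) and Sdhaf3 (0.385). Cox8b averaged 0.0181 FPKM, and Cox7b2, Cox8c and a second identifier named Atp5o were listed at 0.

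The c-ring of FO, the rotor through which protons pass, is built from a single protein, subunit c, that 3 genes encode. They are Atp5g1 (chr11:96068852-96075670), Atp5g2 (chr15:102662864-102672352) and Atp5g3 (chr2:73908447-73911326), all on the minus strand of GRCm38. Their last 120 coding bases before the stop codon are shown because the 3 genes were not called alike with dexamethasone. Capitals mark the 30 positions at which the 3 genes differ.
Atp5g1: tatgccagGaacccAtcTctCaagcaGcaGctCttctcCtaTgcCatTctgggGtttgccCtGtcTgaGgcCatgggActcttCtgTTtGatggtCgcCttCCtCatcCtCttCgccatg
Atp5g2: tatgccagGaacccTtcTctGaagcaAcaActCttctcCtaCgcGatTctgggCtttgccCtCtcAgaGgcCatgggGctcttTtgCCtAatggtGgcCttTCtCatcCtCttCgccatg
Atp5g3: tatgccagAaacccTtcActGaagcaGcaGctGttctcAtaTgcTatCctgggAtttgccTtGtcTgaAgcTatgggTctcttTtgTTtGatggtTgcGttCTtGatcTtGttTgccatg
Atp5g1 and Atp5g2 matched at 104 of the 120 bases, Atp5g1 and Atp5g3 at 99, and Atp5g2 and Atp5g3 at 93. All 40 codons of the stretch nevertheless coded for the same residue in the 3 genes. The bases come from the GENCODE M21 transcripts with the longest coding sequence.

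With dexamethasone, RNA of respiratory chain and ATP synthase genes was lower in the median in both genotypes, by small steps. Of the 91 genes, 44 were lower and 1 higher in KO cells with dexamethasone than in KO cells with vehicle, with a median difference of -0.27 (log2 of FPKM + 1, the scale of all differences here). A gene was called where the limma test, Benjamini-Hochberg adjusted over all 11654 genes, gave a p under 0.05. Over all genes, 39.1% were called in this comparison and 24.1% were lower, with a median of -0.055. In WT cells, 29 of the 91 genes were lower with dexamethasone than with vehicle and none was higher, with a median of -0.19. None was higher at an unadjusted limma p under 0.05 or with voom on the recovered reads, which kept the authors' scaling. Over all genes, 30.1% were called there and 18.2% were lower, with a median of -0.018. By complex, every median was negative except that of complex II in KO, at 0.049. The share of lower genes ran from 14.3% in complex II to 70.6% in complex V in KO. In WT it ran from 20.9% in complex I to 50% in complex III. The split of the calls depends on the scaling: quantile normalization gave 21 lower and 7 higher in KO cells and 23 lower and 3 higher in WT cells. In bulk RNA of this kind, fewer cells of a type and less RNA per cell cannot be told apart. Of the 10 macrophage markers, 4 were higher and 5 lower with dexamethasone in KO, and 3 higher and 6 lower in WT. No stromal marker passed in either genotype, and 2 of 7 measured endothelial markers were lower in each. The stromal markers were not level in WT, however: the median difference of the 8 measured was 1.02 there and 0.10 in KO. Col1a1 averaged 205 ± 148 FPKM in WT dexamethasone and 108 ± 71.1 FPKM in WT vehicle libraries (SD), a wide spread. The part of cell composition in the dexamethasone differences was not tested beyond the stromal settings given with the genotypes.

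The summed FPKM of all 91 genes was 4219, 3853, 3895 and 3812 in KO dexamethasone libraries, against 4592, 5428, 4492 and 4600.2 in KO vehicle libraries. No KO dexamethasone library reached the lowest KO vehicle library, and the mean changed by -17.4%. In WT libraries the sum was 3736, 3400.2, 4251 and 3709 with dexamethasone, against 4487, 4239, 4298 and 4303 with vehicle. There 1 dexamethasone library, replicate 3, lay just above the lowest vehicle library, and the mean changed by -12.9%. By complex, the means changed with dexamethasone by -16% in KO and -11.6% in WT for complex I, by -15.7% and -11% for complex III, by -19.5% and -14.7% for complex IV, and by -19.8% and -14.7% for complex V. The smallest changes were those of complex II, by -6.79% in KO and -5.58% in WT, and its libraries overlapped between the treatments in both genotypes. As a share of the FPKM of all genes, complex II averaged 0.0908% in KO dexamethasone and 0.0866% in KO vehicle libraries. In WT the share averaged 0.0821% with dexamethasone and 0.0794% with vehicle. Relative to all FPKM, the complex II mean was thus higher with dexamethasone. KO vehicle replicate 2 had the highest value of its group for 54 of the 91 genes, and without it the KO change of the whole sum was -13.5% and that of complex II was -4.13%. KO dexamethasone replicate 1 was also highest of its group for 54 genes, and without it the KO change of the whole sum was -19.3%. WT dexamethasone replicate 3 was highest for 63 genes, and without it the WT change was -16.5%. Whether the sum changed more in KO than in WT was not tested. The FPKM of all genes also added up to less with dexamethasone, at 307305 to 326728 in KO libraries against 329193 to 376222 with vehicle. In WT these totals were 296893 to 337581 against 340790 to 348823. The depth behind the FPKM, recovered from the values, did not follow the reads on genes. It was 16568756 in KO vehicle replicate 2, with 20496225 reads on genes, and 19543938 in WT dexamethasone replicate 2, with 19196633. The sums and totals depend on this depth, whereas shares of all FPKM do not. Its part in the changes was not tested. Of the totals, the 91 genes made up 1.25% ± 0.030 in KO dexamethasone and 1.35% ± 0.087 in KO vehicle libraries (SD), which overlapped. In WT the shares were 1.20% ± 0.10 and 1.255% ± 0.024, also with overlap.

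**Figure D1:**
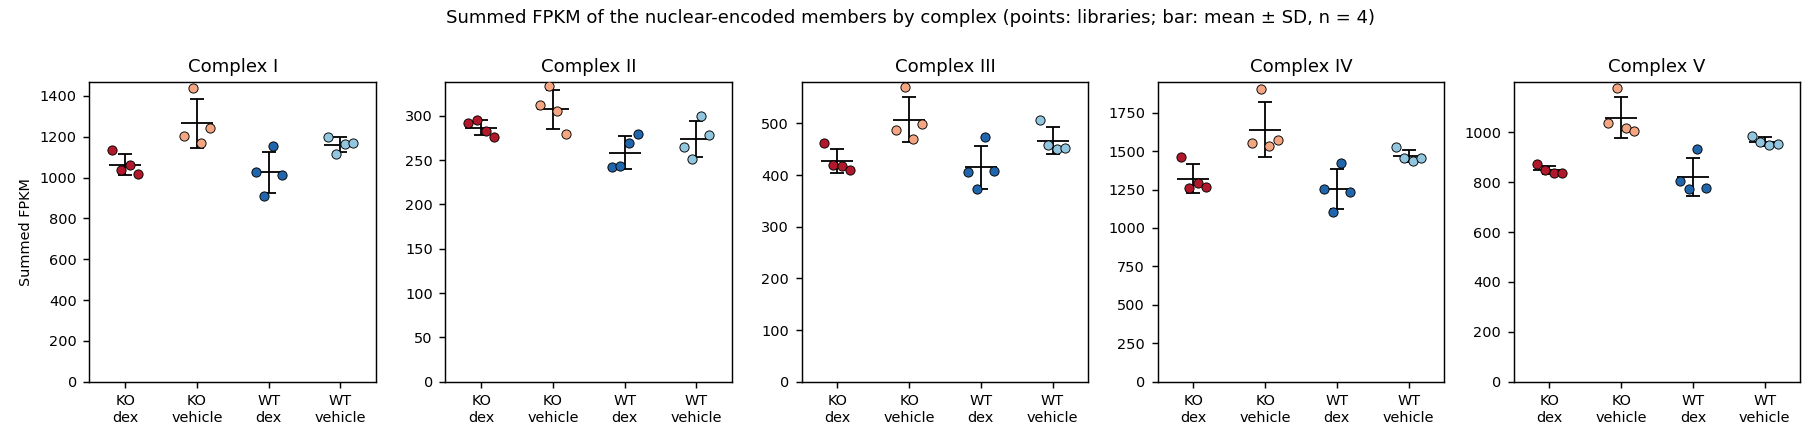
Summed FPKM (y axis, from 0) of the members of complexes I to V in each library, by group (x axis), with the mean and SD of 4 libraries as bars. In complexes IV and V, every dexamethasone library of a genotype lies below every vehicle library of that genotype, while complex II overlaps.

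**Figure D2:**
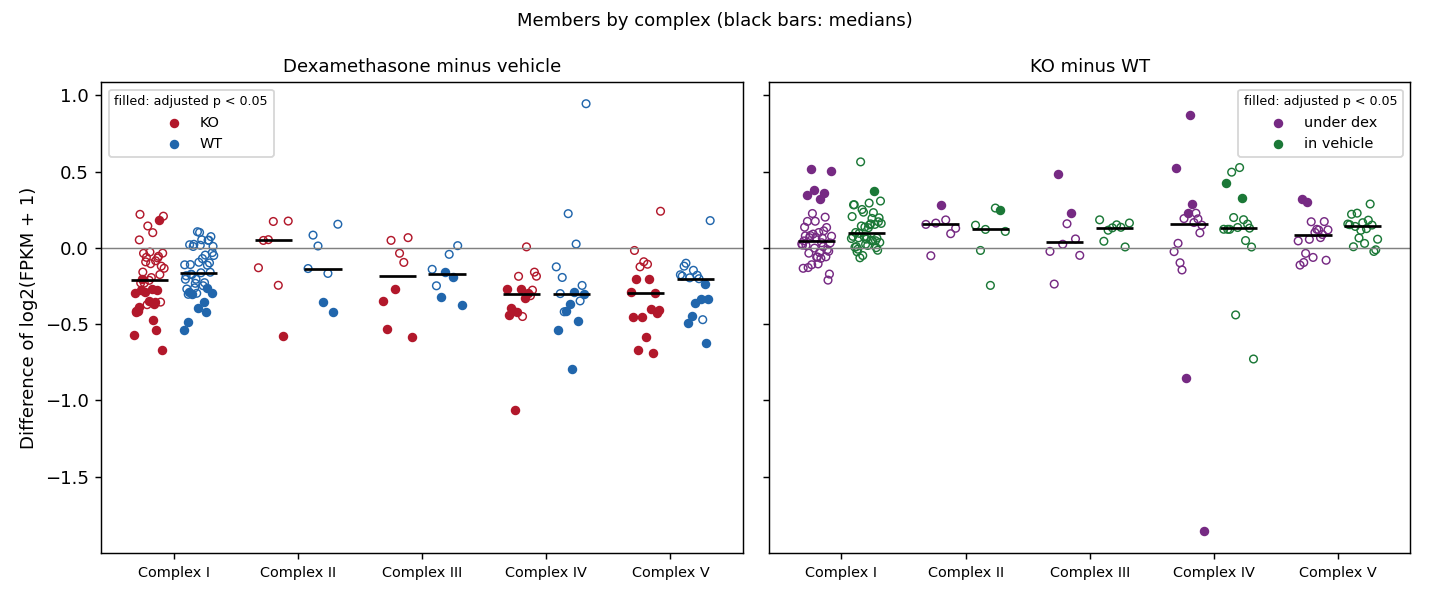
Each point is 1 gene: its difference of log2(FPKM + 1) (y axis) by complex (x axis), for dexamethasone minus vehicle in KO and WT (left) and for KO minus WT with dexamethasone and in vehicle (right). Filled points passed adjusted p 0.05, and black bars are medians, which lie below 0 with dexamethasone in every complex except complex II in KO.

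Complex I contributed 18 lower genes (41.9%) and 1 higher gene of 43 in KO cells, where 24.1% of all genes were lower. It contributed 9 lower genes (20.9%) in WT cells, where 18.2% of all genes were lower. The accessory subunits, which surround the catalytic core, carried most of the complex I calls, with 15 of 28 lower in KO and 7 of 28 in WT. Among the 7 nuclear-encoded core subunits, which bind the flavin and most of the iron-sulphur clusters, the median difference was -0.056 in KO and 0.0096 in WT. Ndufs8, a core subunit that carries iron-sulphur clusters, was the only one of them called lower. It measured 39.4, 41.7, 37.4 and 35.2 FPKM in KO dexamethasone libraries, against 58.2, 66.2, 57 and 65 FPKM in KO vehicle libraries. It measured 41.8, 40.4, 49.5 and 42.1 FPKM in WT dexamethasone libraries, against 55.1, 51.5, 52.7 and 54.8 FPKM in WT vehicle libraries. In both genotypes all dexamethasone libraries lay below all vehicle libraries, with a difference of -0.67 ± 0.074 (SE, adjusted p = 7.86e-06) in KO and -0.30 ± 0.074 (SE, adjusted p = 0.00717) in WT. Ndufc1, an accessory subunit of the membrane arm, had 16.8, 14.8, 16.3 and 14 FPKM in KO dexamethasone libraries, against 23.8, 24.6, 22.1 and 21.2 FPKM in KO vehicle libraries. Its WT values were 13.9, 14.2, 15.7 and 13.1 FPKM in WT dexamethasone libraries, against 19, 18.2, 19.4 and 21 FPKM in WT vehicle libraries, again without overlap. The difference was -0.54 ± 0.073 (SE, adjusted p = 4.58e-05) in KO and -0.42 ± 0.073 (SE, adjusted p = 0.000574) in WT. Ndufa2, the most abundant complex I member, averaged 93.5 ± 7.1 FPKM in KO dexamethasone libraries and 125 ± 17.9 FPKM in KO vehicle libraries (SD, n = 4 each), a difference of -0.41 ± 0.098 (SE, adjusted p = 0.00397). In WT it averaged 88.7 ± 10.5 FPKM in WT dexamethasone libraries and 124 ± 3.99 FPKM in WT vehicle libraries, a difference of -0.49 ± 0.098 (SE, adjusted p = 0.00174).

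Of the other core subunits, Ndufs3 alone passed. Ndufv1, which binds NADH and the flavin, averaged 27.8 ± 1.27 FPKM in KO dexamethasone libraries and 28.6 ± 3.3 FPKM in KO vehicle libraries, a difference of -0.035 (adjusted p = 0.778), and its difference in WT was -0.031 (adjusted p = 0.81). Ndufs1, the largest iron-sulphur subunit, differed by -0.066 ± 0.09 (SE, adjusted p = 0.605) in KO and by -0.11 ± 0.09 (SE, adjusted p = 0.373) in WT. Ndufs3, a core subunit of the peripheral arm, was the single higher gene of the 91 in KO, with 28.8, 29.4, 30.1 and 28.6 FPKM in KO dexamethasone libraries, against 27.7, 25.3, 23.9 and 25.8 FPKM in KO vehicle libraries. Its difference was 0.18 ± 0.066 (SE, adjusted p = 0.0404), and the call was lost without any 1 of 9 libraries, at adjusted p up to 0.112. Its difference in WT was 0.05 ± 0.066 (SE, adjusted p = 0.612). Of the 8 complex I assembly factors, Ndufaf8 was lower in both genotypes and Ndufaf3 in KO.

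Complex II, succinate dehydrogenase, had 1 of 7 genes lower in KO (14.3%) and 2 of 7 lower in WT (28.6%). The shares over all genes were 24.1% and 18.2%. Sdhc, a membrane anchor that binds the haem, had 29.3, 29.8, 30.2 and 28.7 FPKM in KO dexamethasone libraries, against 46.7, 45.8, 45.1 and 40.5 FPKM in KO vehicle libraries. Its WT values were 27.2, 26.5, 30.7 and 26.1 FPKM in WT dexamethasone libraries, against 37.1, 35.3, 41 and 36.1 FPKM in WT vehicle libraries. No library overlapped in either genotype, and Sdhc was lower, at -0.58 ± 0.065 (SE, adjusted p = 8.48e-06) in KO and -0.42 ± 0.065 (SE, adjusted p = 0.00021) in WT. The other anchor, Sdhd, was the most abundant member of the complex and did not pass, at 103 ± 4.04 FPKM in KO dexamethasone libraries and 91.6 ± 8.16 FPKM in KO vehicle libraries (0.18 ± 0.076 SE, adjusted p = 0.0808) and 94.6 ± 7.5 FPKM in WT dexamethasone libraries and 84.9 ± 6.07 FPKM in WT vehicle libraries (0.15 ± 0.076 SE, adjusted p = 0.143). Sdha, the catalytic flavoprotein, differed by -0.13 ± 0.066 (SE, adjusted p = 0.133) in KO and -0.14 ± 0.066 (SE, adjusted p = 0.14) in WT. Sdhb, the iron-sulphur subunit, differed by -0.25 ± 0.10 (SE, adjusted p = 0.0728) in KO and -0.17 ± 0.10 (SE, adjusted p = 0.246) in WT. The assembly factor Sdhaf4, which helps join Sdha to Sdhb, had 10.4, 11, 9.97 and 9.85 FPKM in KO dexamethasone libraries, against 9.5, 8.84, 9.03 and 8.76 FPKM in KO vehicle libraries. In WT it had 7.09, 8.61, 8.73 and 8.97 FPKM in WT dexamethasone libraries, against 10.6, 10.1, 11.7 and 11.2 FPKM in WT vehicle libraries. The KO dexamethasone libraries all lay above the KO vehicle libraries, whereas the WT dexamethasone libraries all lay below the WT vehicle libraries. The difference did not pass in KO, at 0.17 ± 0.068 (SE, adjusted p = 0.0559), and passed in WT, at -0.35 ± 0.068 (SE, adjusted p = 0.00129).

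Complex III, the cytochrome bc1 complex, had 4 of 8 genes lower in each genotype, where 24.1% of all genes were lower in KO and 18.2% in WT. Uqcrq, a small subunit next to cytochrome b, had 32.1, 26.7, 29.5 and 29 FPKM in KO dexamethasone libraries, against 39.8, 52.4, 40.2 and 46.4 FPKM in KO vehicle libraries. The KO groups did not overlap, and the difference was -0.59 ± 0.12 (SE, adjusted p = 0.00121). In WT it averaged 30.7 ± 5.56 FPKM in WT dexamethasone libraries and 39.7 ± 3.15 FPKM in WT vehicle libraries with overlapping libraries, a difference of -0.37 ± 0.12 (SE, adjusted p = 0.0261). Uqcrc1, a core protein on the matrix side, was lower, at -0.27 ± 0.053 (SE, adjusted p = 0.00118) in KO and -0.16 ± 0.053 (SE, adjusted p = 0.0348) in WT. The WT call of Uqcrc1 was lost without any 1 of 4 libraries, at adjusted p from 0.0667 to 0.11. Uqcrb, the ubiquinone-binding protein by its older name, was called lower in WT and not in KO, with 24.2, 25.7, 25.4 and 25.4 FPKM in WT dexamethasone libraries, against 31.1, 29.3, 36.9 and 29.7 FPKM in WT vehicle libraries. It differed by -0.32 ± 0.085 (SE, adjusted p = 0.0109) in WT and by 0.049 ± 0.085 (SE, adjusted p = 0.696) in KO. Uqcrfs1, the Rieske iron-sulphur protein, differed by -0.19 ± 0.058 (SE, adjusted p = 0.0229) in WT, a call lost without either of 2 libraries at adjusted p up to 0.081, and by -0.095 ± 0.058 (SE, adjusted p = 0.212) in KO. Uqcr10, the most abundant member of complex III by mean FPKM, was lower in KO (-0.35 ± 0.10 SE, adjusted p = 0.0128) and did not pass in WT (-0.14 ± 0.10 SE, adjusted p = 0.32). Under quantile normalization the KO calls of Uqcrc1 (adjusted p = 0.21) and Uqcr10 (0.206) and the WT calls of Uqcrc1 (0.331) and Uqcrfs1 (0.284) were lost.

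Complex IV, cytochrome c oxidase, had 9 of 16 genes lower in KO and 7 of 16 lower in WT, where 24.1% and 18.2% of all genes were. Cox6b1, a subunit on the intermembrane side, had 143, 135, 128 and 127 FPKM in KO dexamethasone libraries, against 178, 191, 172 and 172 FPKM in KO vehicle libraries. Its WT values were 113, 115, 133 and 106 FPKM in WT dexamethasone libraries, against 157, 159, 158 and 147 FPKM in WT vehicle libraries. The treatments did not overlap in either genotype, with differences of -0.42 ± 0.07 (SE, adjusted p = 0.000287) in KO and -0.41 ± 0.07 (SE, adjusted p = 0.00048) in WT. Cox5a, a matrix-side subunit, had 52.1, 47.3, 44.4 and 41 FPKM in KO dexamethasone libraries, against 62.9, 62.2, 68 and 58.1 FPKM in KO vehicle libraries. Its WT values were 28.6, 29, 32.4 and 37.6 FPKM in WT dexamethasone libraries, against 46.6, 43, 50.3 and 46.3 FPKM in WT vehicle libraries. It was lower, at -0.44 ± 0.092 (SE, adjusted p = 0.00168) in KO and -0.54 ± 0.092 (SE, adjusted p = 0.000508) in WT, and its order over the groups is taken up with the genotypes below. Cox4i1, the regulatory subunit 4, was lower in KO at 205 ± 12.3 FPKM in KO dexamethasone libraries and 249 ± 30.9 FPKM in KO vehicle libraries (-0.27 ± 0.087 SE, adjusted p = 0.0224). That call was lost without any 1 of 3 libraries, at adjusted p up to 0.0722, and its WT difference was -0.12 ± 0.087 (SE, adjusted p = 0.309). Cox8a and Cox6a1, the most abundant members, differed by -0.28 ± 0.13 (SE, adjusted p = 0.101) and -0.41 ± 0.12 (SE, adjusted p = 0.0126) in KO and by -0.25 ± 0.13 (SE, adjusted p = 0.167) and -0.19 ± 0.12 (SE, adjusted p = 0.243) in WT. Quantile normalization ended the KO calls of Cox6b1 (adjusted p = 0.0895), Cox4i1 (0.377) and Cox7a2 (0.15), and the WT calls of Cox7a2 (0.115) and Ndufa4 (0.0836).

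Muscle-type isoforms of complex IV, which usually belong to heart and skeletal muscle, were low but measurable. Cox7a1 had 1.14, 0.956, 0.803 and 1.19 FPKM in WT dexamethasone libraries, against 3.16, 2.42, 3.9 and 1.14 FPKM in WT vehicle libraries. WT vehicle replicate 4 lay among the dexamethasone libraries, and the difference was -0.79 ± 0.20 (SE, adjusted p = 0.00693). In KO, Cox7a1 averaged 2.71 ± 0.536 FPKM in KO dexamethasone libraries and 4.05 ± 0.531 FPKM in KO vehicle libraries, a difference of -0.45 ± 0.20 (SE, adjusted p = 0.0832). Cox7a2, the general form, was lower in both genotypes, at -0.33 ± 0.075 (SE, adjusted p = 0.00315) in KO and -0.29 ± 0.075 (SE, adjusted p = 0.00962) in WT. Cox6a2 had 0.924, 0.153, 0.309 and 0.444 FPKM in KO dexamethasone libraries, against 1.96, 2.75, 2.88 and 0.837 FPKM in KO vehicle libraries. It was lower, at -1.06 ± 0.25 (SE, adjusted p = 0.00407) in KO with 1 overlapping library on each side, and it did not pass in WT (-0.42 ± 0.25 SE, adjusted p = 0.236). No KO dexamethasone library reached 1 FPKM of Cox6a2, so it entered the test partly through the KO vehicle libraries in which it was high. These isoforms rest on few reads: Cox7a1 had 8 to 42 and Cox6a2 had 2 to 34 in a library.

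Complex V carried the largest share of lower genes in KO, 12 of 17, and 7 of 17 in WT, where 24.1% and 18.2% of all genes were lower. Of the 11 subunits of FO and the peripheral stalk, 8 were lower in KO and 6 in WT, with medians of -0.40 and -0.34. Of the 5 F1 subunits, which here include Atp5c1 and Atp5e of the central stalk, 4 were lower in KO and 1, Atp5e, in WT. Atp5b, the catalytic beta subunit, had 117, 117, 120.00 and 119 FPKM in KO dexamethasone libraries, against 157, 191, 152 and 150.00 FPKM in KO vehicle libraries. The KO groups did not overlap, and the difference was -0.45 ± 0.085 (SE, adjusted p = 0.000804), whereas in WT it averaged 128 ± 14 FPKM in WT dexamethasone libraries and 146 ± 7.78 FPKM in WT vehicle libraries and did not pass (-0.19 ± 0.085 SE, adjusted p = 0.119). Atp5a1, the alpha subunit, was lower in KO (-0.29 ± 0.065 SE, adjusted p = 0.00311) and did not pass in WT (-0.18 ± 0.065 SE, adjusted p = 0.0549). Its KO call was lost under quantile normalization (-0.043, adjusted p = 0.603). Atp5e, the epsilon subunit of the central stalk, had 42.6, 40.3, 39.7 and 37.7 FPKM in KO dexamethasone libraries, against 58.1, 74.3, 61.6 and 64 FPKM in KO vehicle libraries. Without overlap in KO, it was lower, at -0.67 ± 0.11 (SE, adjusted p = 0.000272), and in WT by -0.49 ± 0.11 (SE, adjusted p = 0.0038) with overlapping libraries. Atp5mpl, a small protein of the membrane part, had 16.4, 18.2, 21 and 15.2 FPKM in WT dexamethasone libraries, against 25.7, 29.8, 28.8 and 26.3 FPKM in WT vehicle libraries. It was lower, at -0.62 ± 0.096 (SE, adjusted p = 0.000224) in WT and at -0.43 ± 0.096 (SE, adjusted p = 0.00281) in KO. Atp5s, which is named for the ATP synthase but is not counted among its subunits here, was the least abundant and did not pass in either genotype (0.24 ± 0.11 SE, adjusted p = 0.108, in KO and 0.18 ± 0.11 SE, adjusted p = 0.259, in WT).

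**Figure D3:**
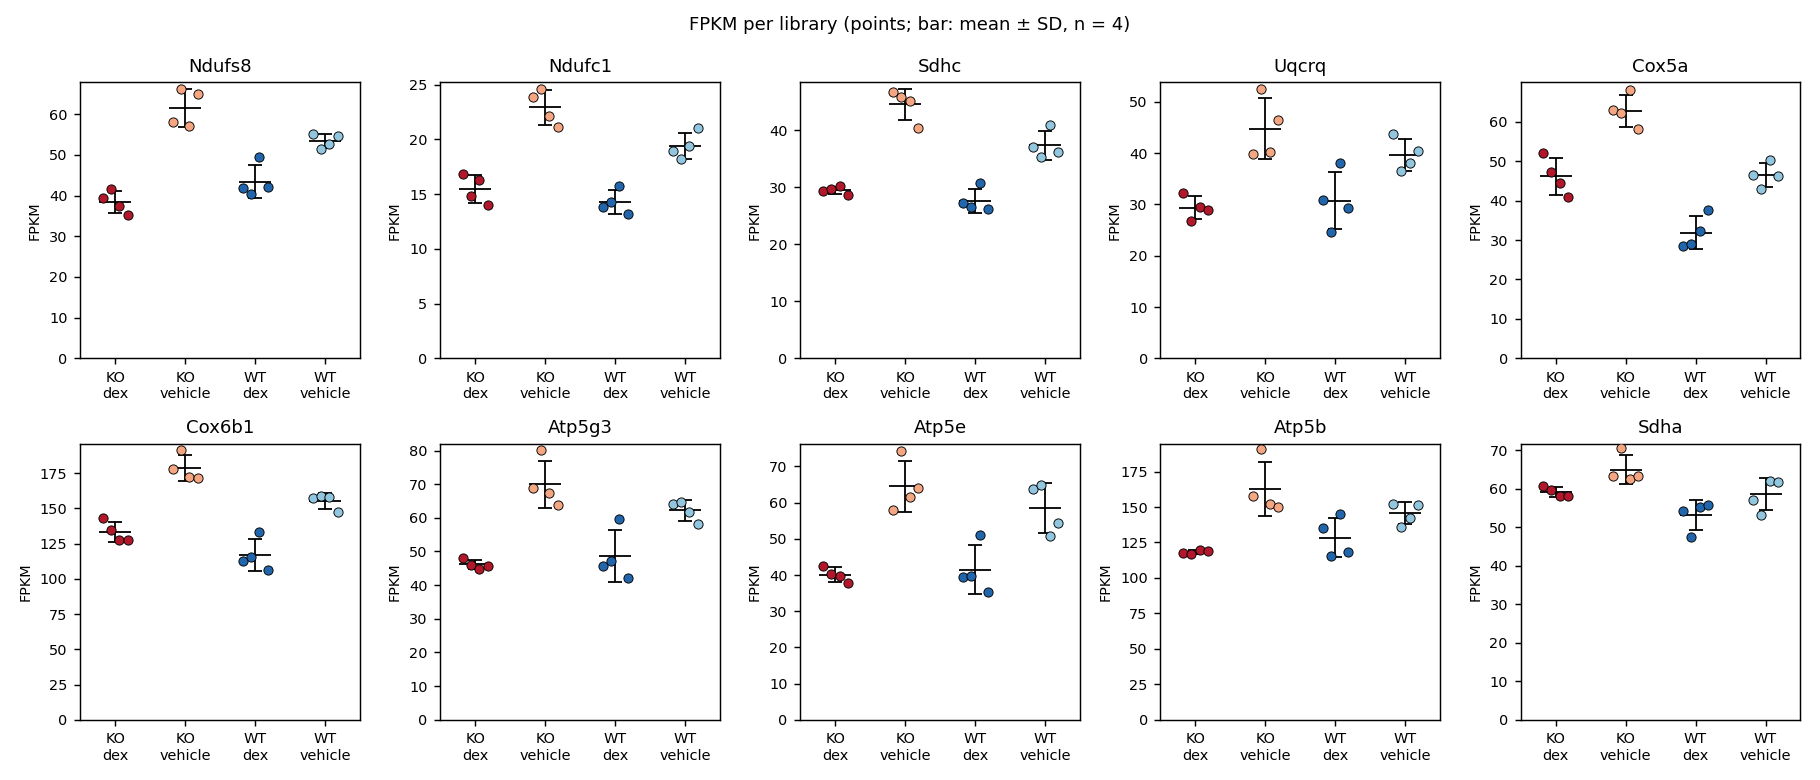
FPKM (y axis, from 0) per library of 10 members named in the text, by group (x axis), with the mean and SD of 4 libraries as bars. Ndufs8, Ndufc1, Sdhc, Cox5a and Cox6b1 show no overlap between dexamethasone and vehicle in either genotype, whereas Sdha overlaps in WT.

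The 3 genes for subunit c, which carry the sequences above, were not called alike. Differences between the genes were not tested. Atp5g1 and Atp5g3 were also called lower in both genotypes under median-ratio scaling and quantile normalization, and Atp5g2 under neither. Its KO difference was 0.085 under quantile normalization. Atp5g3 had 48.1, 45.8, 44.9 and 45.7 FPKM in KO dexamethasone libraries, against 68.8, 80.1, 67.4 and 63.8 FPKM in KO vehicle libraries. It was lower, at -0.59 ± 0.093 (SE, adjusted p = 0.000199) in KO without overlap and at -0.36 ± 0.093 (SE, adjusted p = 0.00953) in WT with overlap. Atp5g1 had 10.6, 8.37, 10.6 and 8.39 FPKM in WT dexamethasone libraries, against 13.6, 13.6, 12.2 and 13.5 FPKM in WT vehicle libraries. It was lower, at -0.45 ± 0.08 (SE, adjusted p = 0.000713) in WT and -0.46 ± 0.08 (SE, adjusted p = 0.000428) in KO, without overlap in either. Atp5g2 had 59.3, 61.9, 55.2 and 64.4 FPKM in KO dexamethasone libraries, against 65.2, 72, 60.3 and 59.6 FPKM in KO vehicle libraries. These overlapped, and its difference did not pass in KO (-0.091 ± 0.09 SE, adjusted p = 0.462) or in WT (-0.15 ± 0.09 SE, adjusted p = 0.245). The share of Atp5g2 in the summed FPKM of the 3 genes was 51.8% ± 1.67 in KO dexamethasone libraries and 43.4% ± 0.545 in KO vehicle libraries (SD, n = 4 each). In WT the Atp5g2 share was 48% ± 2.76 with dexamethasone and 44% ± 1.38 with vehicle. The Atp5g3 share was 39.7% ± 1.43 in KO dexamethasone libraries and 47.2% ± 0.764 in KO vehicle libraries, and 43.5% ± 2.33 in WT dexamethasone libraries and 46.2% ± 1.37 in WT vehicle libraries. These shares are per exon length, and the annotated exons of Atp5g1 add up to 4912 bases, against 1675 for Atp5g2 and 2181 for Atp5g3. Reads of Atp5g1 and Atp5g2 may also be counted at near-identical pseudogenes. Gm10039 (99.8% identity to Atp5g1 over 411 bases) averaged 1.10 FPKM, beside 11.6 of Atp5g1. Gm10175 (100% identity to Atp5g2 over 645 bases) averaged 1.38 FPKM, beside 59.3 of Atp5g2. No such copy was found for Atp5g3.

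**Figure D4:**
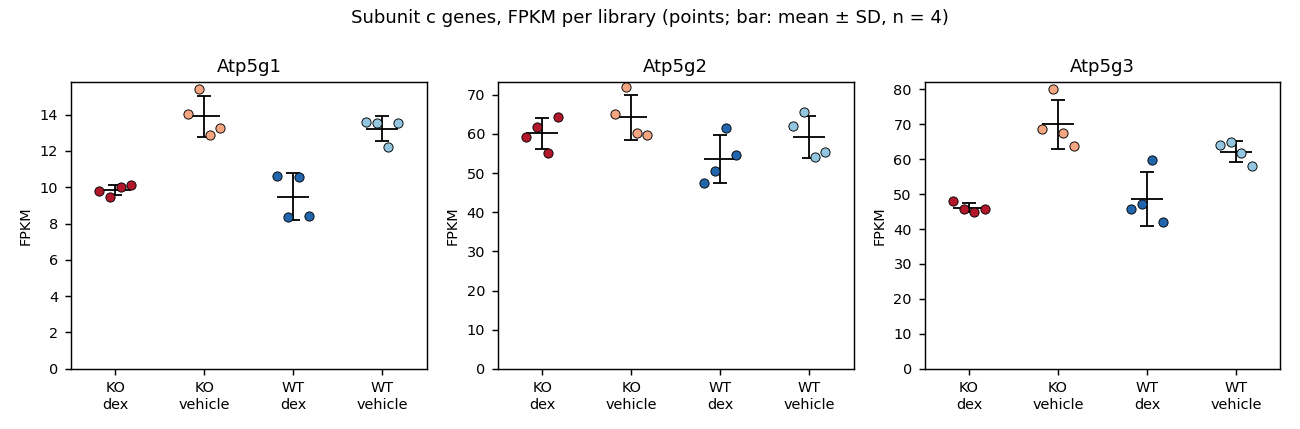
FPKM (y axis, from 0) per library of the 3 genes for subunit c, by group (x axis), with the mean and SD of 4 libraries as bars. Dexamethasone libraries of KO lie below vehicle libraries for Atp5g1 and Atp5g3, and the groups overlap for Atp5g2.

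In total, 22 genes were lower with dexamethasone in both genotypes, which is 50% of the 44 lower in KO and 75.9% of the 29 lower in WT. Over all genes, 14.7% were lower in both. The 22 were spread over the complexes, with 7 of complex I, 1 of complex II, 2 of complex III, 5 of complex IV and 7 of complex V. For 17 of them the libraries of the treatments overlapped in neither genotype. Counted by overlap alone, 43 of 91 genes had every KO dexamethasone library below every KO vehicle library, where 23.9% of all genes did. In WT this held for 27 of 91, where 16.5% of all genes did.

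Whether the response to dexamethasone differed between the genotypes was tested as an interaction. Of the 91 genes none passed, and 6 had an unadjusted p under 0.05 in limma. Over all genes 0.129% passed, 0.0601% with a higher and 0.0686% with a lower response in KO. Fitting the recovered reads with voom also gave none, while array weights gave 2 higher and 4 lower, and 6 other settings gave 1 higher. Sdhaf4 came nearest, with a difference between the KO and WT responses of 0.52 ± 0.096 (SE, adjusted p = 0.051). It was followed by Ndufs8 at -0.37 ± 0.10 (SE, adjusted p = 0.194) and Uqcrb at 0.37 ± 0.12 (SE, adjusted p = 0.254). The other 3 were Atp5b, Ndufa5 and Ndufb4, with Ndufa5 and Ndufb4 picked out after their values were seen, at adjusted p from 0.322 to 0.408. The genes called in a single genotype above are therefore not shown to respond differently between genotypes.

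Between the genotypes in vehicle, 4 of 91 genes were higher in KO-labelled cells and none was lower by limma or with voom, with a median difference of 0.13. At an unadjusted p under 0.05, 26 were higher and 2 lower. Over all genes, 4.68% were called, 3.37% higher and 1.3% lower, with a median of 0.042. Every KO vehicle library lay above every WT vehicle library for 14 of the 91 genes, where 7.66% of all genes did so. Cox5a had 62.9, 62.2, 68 and 58.1 FPKM in KO vehicle libraries, against 46.6, 43, 50.3 and 46.3 FPKM in WT vehicle libraries. All KO vehicle libraries lay above all WT vehicle libraries, with a difference of 0.42 ± 0.092 (SE, adjusted p = 0.0156). Cox7a2 had 76.4, 67.1, 74.5 and 70.7 FPKM in KO vehicle libraries, against 51.8, 55.3, 61.5 and 60.6 FPKM in WT vehicle libraries, also without overlap, and differed by 0.33 ± 0.075 (SE, adjusted p = 0.0216). Ndufc2, an accessory subunit of complex I, had 67.5, 71.9, 72.2 and 78.1 FPKM in KO vehicle libraries, against 54.9, 50.9, 63.5 and 54.2 FPKM in WT vehicle libraries. It differed by 0.37 ± 0.087 (SE, adjusted p = 0.026), without overlap, and Sdhc differed by 0.25 ± 0.065 (SE, adjusted p = 0.0426) with overlapping libraries. These 4 calls are narrow. Without KO vehicle replicate 3, and likewise without WT vehicle replicate 2, no gene was called higher. Leaving out KO vehicle replicate 2, WT vehicle replicate 1 or WT vehicle replicate 4 left 2, 1 and 2, whereas without KO vehicle replicate 4 there were 9 and without WT vehicle replicate 3 there were 10. The Sdhc call was lost without any 1 of 11 libraries, at adjusted p up to 0.142.

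The summed FPKM of all 91 genes averaged 4778 ± 436 in KO vehicle libraries and 4332 ± 107 in WT vehicle libraries (SD, n = 4 each), a change of 10.3%, or 5.30% without KO vehicle replicate 2. All 4 KO vehicle sums lay above all 4 WT vehicle sums. As a share of the FPKM of all genes, however, the vehicle libraries of the genotypes overlapped. The share was 1.26% to 1.44% in KO vehicle and 1.24% to 1.29% in WT vehicle libraries. With dexamethasone the mean sums were 3945 ± 186 in KO and 3774 ± 353 in WT, a change of 4.52% with overlapping libraries. Cox5a, called higher above, was 1 of 10 subunits named in every comparison, and the others did not pass in vehicle. Ndufv1 differed by 0.036 ± 0.081 (SE, adjusted p = 0.832), Ndufs1 by 0.15 ± 0.09 (SE, adjusted p = 0.323) and Sdha by 0.15 ± 0.066 (SE, adjusted p = 0.212). Uqcrc1 differed by 0.13 ± 0.053 (SE, adjusted p = 0.179), Cox4i1 by 0.12 ± 0.087 (SE, adjusted p = 0.42), Sdhb by 0.26 ± 0.10 (SE, adjusted p = 0.169) and Uqcrfs1 by 0.13 ± 0.058 (SE, adjusted p = 0.202). Atp5a1 differed by 0.16 ± 0.065 (SE, adjusted p = 0.192) and Atp5b by 0.15 ± 0.085 (SE, adjusted p = 0.306).

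With dexamethasone, 15 of 91 genes were higher and 2 lower in KO-labelled than in WT cells, with a median difference of 0.076. Over all genes, 26.7% were called, 14.3% higher and 12.4% lower, with a median of 0.03. Every KO dexamethasone library lay above every WT dexamethasone library for 21 of the 91 genes and below for 1, where 16.3% and 10.2% of all genes did so. In complex I, Ndufv2, the partner of Ndufv1 in the NADH-oxidising module, had 39.3, 32.4, 34.8 and 31.1 FPKM in KO dexamethasone libraries, against 23.9, 22, 26.7 and 23.1 FPKM in WT dexamethasone libraries. The genotypes did not overlap, with a difference of 0.50 ± 0.10 (SE, adjusted p = 0.00376). Ndufaf5, an assembly factor that modifies Ndufs7, had 4.15, 3.82, 3.99 and 4.14 FPKM in KO dexamethasone libraries, against 3.02, 2.97, 2.94 and 2.55 FPKM in WT dexamethasone libraries, a difference of 0.38 ± 0.079 (SE, adjusted p = 0.00469). In complex II, Sdhaf4 differed by 0.28 ± 0.068 (SE, adjusted p = 0.0103). In complex III, Uqcrb had 41.7, 35.4, 35.6 and 30.5 FPKM in KO dexamethasone libraries, against 24.2, 25.7, 25.4 and 25.4 FPKM in WT dexamethasone libraries. It differed by 0.48 ± 0.085 (SE, adjusted p = 0.00165) and Uqcrfs1 by 0.23 ± 0.058 (SE, adjusted p = 0.0126), the second lost without WT dexamethasone replicate 1 (adjusted p = 0.0511).

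In complex IV under dexamethasone, Cox5a had 52.1, 47.3, 44.4 and 41 FPKM in KO dexamethasone libraries, against 28.6, 29, 32.4 and 37.6 FPKM in WT dexamethasone libraries. It was higher in KO-labelled cells by 0.52 ± 0.092 (SE, adjusted p = 0.0016), without overlap. Its group means were 46.2 FPKM in KO dexamethasone, 62.8 in KO vehicle, 31.9 in WT dexamethasone and 46.5 in WT vehicle libraries. KO vehicle was therefore highest and WT dexamethasone lowest, and the middle groups, KO dexamethasone and WT vehicle, overlapped. Cox7a1 had 3.2, 2.34, 3.14 and 2.17 FPKM in KO dexamethasone libraries, against 1.14, 0.956, 0.803 and 1.19 FPKM in WT dexamethasone libraries. It was higher, at 0.87 ± 0.20 (SE, adjusted p = 0.00723) without overlap, and Cox7a2 by 0.29 ± 0.075 (SE, adjusted p = 0.0141). The Cox7a2 call was lost without WT dexamethasone replicate 1 (adjusted p = 0.0547). In complex V, Atp5c1, the gamma subunit that forms the rotating central stalk, had 95.2, 91.3, 90.4 and 89 FPKM in KO dexamethasone libraries, against 66.4, 71.2, 76.7 and 77.8 FPKM in WT dexamethasone libraries. It differed by 0.32 ± 0.069 (SE, adjusted p = 0.00533) without overlap, and Atp5f1, of the peripheral stalk, by 0.30 ± 0.098 (SE, adjusted p = 0.0372). The Atp5f1 call was lost without any 1 of 7 libraries, at adjusted p up to 0.0962.

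Stromal markers moved with this comparison. Of the 10 listed, 8 passed the filter, and 7 of those were lower in KO dexamethasone than in WT dexamethasone libraries. Their summed level was 6.11 to 93.3 FPKM in KO dexamethasone libraries and 67.7 to 1134 FPKM in WT dexamethasone libraries. In vehicle the sum was 2.43 to 388 FPKM in KO libraries and 29.5 to 555 FPKM in WT libraries. Thy1 was listed at 0 in KO dexamethasone replicates 1 and 2, KO vehicle replicate 2 and WT vehicle replicate 3, and Lum in KO dexamethasone replicate 1. Of 7 measured endothelial markers, 5 were lower and none higher in KO dexamethasone libraries. Of the 10 macrophage markers, 5 were higher and none lower, and their summed level was 14309 to 17156 FPKM in KO dexamethasone libraries and 10704 to 14034 FPKM in WT dexamethasone libraries. With the mean log2 level of the stromal markers as a covariate, 3 of the 91 genes were higher and none lower in KO-labelled cells with dexamethasone, and in vehicle none was higher and 1 lower. The median over the 91 genes was 0.071 with dexamethasone and 0.093 in vehicle with the covariate, against 0.076 and 0.13 without it. Over all genes, the share called with the covariate was 8.19% with dexamethasone and 3.12% in vehicle. The covariate itself went largely with genotype. With dexamethasone it was 0.578 to 2.45 in KO and 2.11 to 4.91 in WT libraries, and in vehicle 0.289 to 3.85 and 1.51 to 4.33. Genotype and stromal level can thus hardly be told apart here, and a call lost with the covariate does not show a stromal origin. Without the 3 libraries apart in Col1a1 there were 20 higher and 2 lower with dexamethasone, and 19 higher and 2 lower in vehicle. The lower counts with dexamethasone against vehicle moved little, to 46 in KO and 29 in WT with the covariate and to 46 and 26 without the 3 libraries. Beyond these values, the part of other cells in the genotype differences was not tested.

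The 2 genes lower in KO-labelled cells under dexamethasone were isoforms at low levels, and both entered the test mainly through WT libraries. Ndufa4l2 reached 1 FPKM in 6 WT and 1 KO library, and Cox6b2 in 4 WT libraries and no KO library. Ndufa4l2, a paralog of the complex IV subunit Ndufa4 that is known as a hypoxia-induced gene, had 0, 0.0476, 0.432 and 0.368 FPKM in KO dexamethasone libraries, against 5.38, 3.5, 6.82 and 0.579 FPKM in WT dexamethasone libraries. WT dexamethasone replicate 4, with little Col1a1, held far less than the other 3 WT dexamethasone libraries. The difference was -1.86 ± 0.49 (SE, adjusted p = 0.0149), and -0.54 with an adjusted p of 0.276 with the stromal covariate. The call was also lost without WT dexamethasone replicate 1 or 3 (adjusted p = 0.0534 and 0.055). In vehicle, Ndufa4l2 had 0.106, 0.11, 0 and 1.8 FPKM in KO vehicle libraries, against 3.09, 1.58, 0.0529 and 1.33 FPKM in WT vehicle libraries. The high KO library and the low WT library were the ones apart in Col1a1. Cox6b2, a testis-type form of Cox6b1, had 0.103, 0.33, 0.0948 and 0.591 FPKM in KO dexamethasone libraries, against 1.86, 1.52, 1.45 and 0.52 FPKM in WT dexamethasone libraries. It differed by -0.85 ± 0.20 (SE, adjusted p = 0.00937), and by -0.47 with an adjusted p of 0.182 with the covariate. In vehicle, Cox6b2 had 0.314, 0.109, 0.52 and 0.934 FPKM in KO vehicle libraries, against 0.967, 1.02, 0.941 and 0.877 FPKM in WT vehicle libraries. WT vehicle replicate 3, with little Col1a1, held about as much Cox6b2 as the rest of its group. Cox4i2, the lung-type and hypoxia-linked form of subunit 4, stayed under the filter and had 0, 0, 0.133 and 0.0639 FPKM in KO dexamethasone libraries and 1.54, 0.455, 1.64 and 0.293 FPKM in WT dexamethasone libraries. Cox7a1, called higher in KO-labelled cells, was lowest in the WT dexamethasone libraries and WT vehicle replicate 4, the WT vehicle library with most Col1a1, and its call was also lost with the covariate (adjusted p = 0.124). KO vehicle replicate 4, rich in Col1a1, nevertheless had 3.58 FPKM of Cox7a1 beside 3.69 to 4.74 in the rest of its group. Of the other genes named here as higher in KO-labelled cells under dexamethasone, 6 did not pass with the covariate, and their differences moved by unequal amounts. The difference of Cox7a2 was 0.26 with the covariate (adjusted p = 0.119) and 0.29 without it, and that of Ndufv2 was 0.35 (adjusted p = 0.0749) and 0.50. Atp5f1 was at 0.099 with the covariate (adjusted p = 0.602) and 0.30 without it, and Atp5c1 at 0.18 (adjusted p = 0.119) and 0.32. Sdhaf4 was at 0.19 with the covariate (adjusted p = 0.182) and 0.28 without it, and Uqcrfs1 at 0.13 (adjusted p = 0.247) and 0.23.

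**Figure D5:**
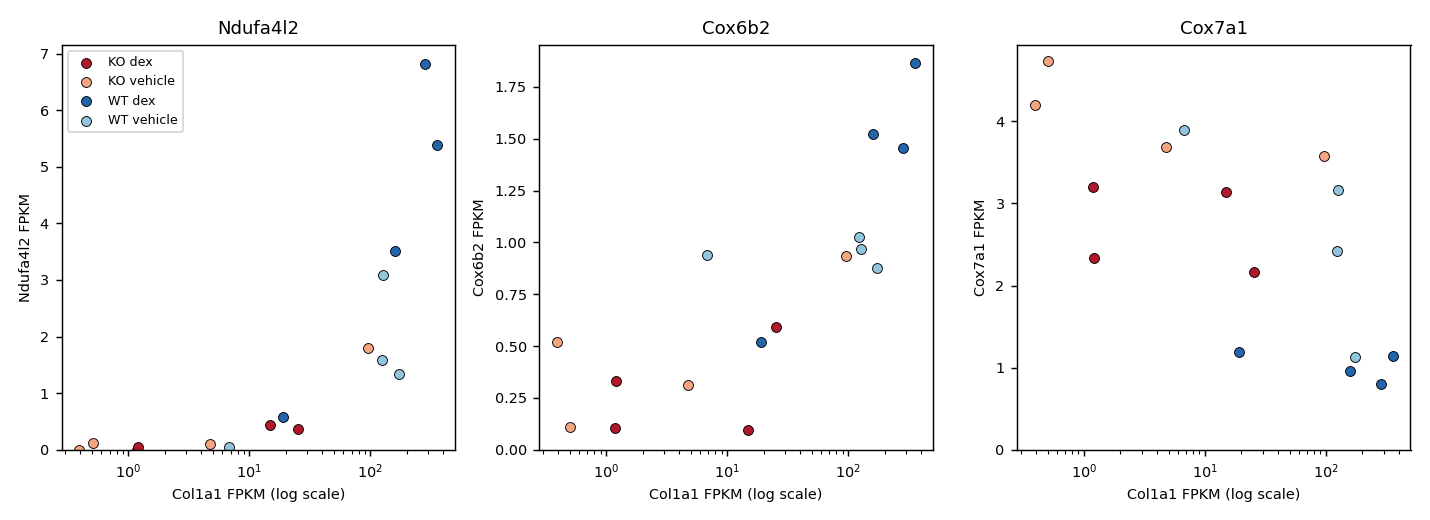
FPKM of Ndufa4l2, Cox6b2 and Cox7a1 (y axes, from 0) against FPKM of the stromal marker Col1a1 (x axis, log scale), with 1 point per library and groups by colour. Ndufa4l2 is above 1 FPKM in the 7 libraries with 95.8 FPKM or more of Col1a1, while Cox7a1 is lowest in WT dexamethasone libraries and WT vehicle replicate 4.

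Few of the mitochondrially encoded subunits were called. Of the 13, none passed by limma in KO with dexamethasone (1 higher and 1 lower at an unadjusted p under 0.05), with a median difference of -0.10, and 1 was lower in WT, with a median of -0.078. That gene, mt-Nd1 of complex I, differed by -0.42 ± 0.14 (SE, adjusted p = 0.0334). The most abundant, mt-Co1, the catalytic subunit of complex IV, had 3056, 2882, 3022 and 2939.9 FPKM in KO dexamethasone libraries, against 3443, 2754, 3466 and 2743 FPKM in KO vehicle libraries, which overlapped. Their summed level was 5792 to 6683 FPKM in KO dexamethasone and 5838 to 7577 FPKM in KO vehicle libraries. In WT it was 5011 to 6728 FPKM with dexamethasone and 5322 to 7716 FPKM with vehicle. Between genotypes, mt-Atp8 was lower in KO vehicle than in WT vehicle (-0.75 ± 0.20 SE, adjusted p = 0.0442) at 1.25 FPKM or less in every library, and none passed with dexamethasone, also at an unadjusted p under 0.05. Whether the mitochondrial and nuclear sets differed was not tested.

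Cycs, the mobile electron carrier cytochrome c between complexes III and IV, was named for its small adjusted p within its list. It had 6.42, 4.74, 5.41 and 4.94 FPKM in KO dexamethasone libraries, against 10.6, 11.5, 11 and 9.17 FPKM in KO vehicle libraries. Its WT values were 5.36, 5.32, 6.33 and 4.81 FPKM in WT dexamethasone libraries, against 9.47, 9.31, 10.001 and 9.62 FPKM in WT vehicle libraries. All dexamethasone libraries lay below all vehicle libraries, and it was lower, at -0.86 ± 0.089 (SE, adjusted p = 4.36e-06) in KO and -0.72 ± 0.089 (SE, adjusted p = 3.26e-05) in WT. Among the 13 measured genes for cytochrome c, cytochrome c1 and ubiquinone synthesis, 4 were lower and 2 higher in KO, and 3 lower and 1 higher in WT. Of all genes, 24.1% were lower and 15% higher in KO, and 18.2% and 11.9% in WT.

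Of 34 measured assembly factors outside the symbol rule, 7 were lower and 4 higher with dexamethasone in KO, and 6 lower and 2 higher in WT. The shares of all genes were 24.1% lower and 15% higher in KO, and 18.2% and 11.9% in WT. Whether the list differed from these shares was not tested. Coa5, needed for complex IV assembly, was lower, at -0.55 ± 0.06 (SE, adjusted p = 6.67e-06) in KO and -0.39 ± 0.06 (SE, adjusted p = 0.000246) in WT. Uqcc2, an assembly factor of complex III, was lower, at -0.87 ± 0.16 (SE, adjusted p = 0.00074) in KO and -0.52 ± 0.16 (SE, adjusted p = 0.0256) in WT. Atpif1, the inhibitor that keeps the ATP synthase from running backwards, was lower, at -0.38 ± 0.099 (SE, adjusted p = 0.00694) in KO and -0.59 ± 0.099 (SE, adjusted p = 0.000485) in WT. Surf1, a complex IV assembly factor, ran the other way and was higher, at 0.43 ± 0.072 (SE, adjusted p = 0.000337) in KO and 0.31 ± 0.072 (SE, adjusted p = 0.00509) in WT. Between genotypes with dexamethasone, 10 of the 34 were higher and 1 lower in KO-labelled cells, where 14.3% and 12.4% of all genes were. Tmem70, which helps assemble the c-ring of the ATP synthase, was higher, at 0.68 ± 0.081 (SE, adjusted p = 0.000106) with dexamethasone and at 0.33 ± 0.081 (SE, adjusted p = 0.0325) in vehicle.

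Among 9 measured carriers and uncoupling genes, 5 were lower and 1 higher with dexamethasone in KO, and 2 lower and 1 higher in WT. For this list and the next 2, the shares of all genes were 24.1% lower and 15% higher in KO. In WT they were 18.2% and 11.9%, and whether the lists differed from them was not tested. Slc25a5, an ADP/ATP exchanger of the inner membrane, was lower, at -0.66 ± 0.081 (SE, adjusted p = 1.92e-05) in KO and -0.54 ± 0.081 (SE, adjusted p = 0.000159) in WT. Vdac2, a channel of the outer membrane, was lower, at -0.63 ± 0.096 (SE, adjusted p = 0.000138) in KO and -0.63 ± 0.096 (SE, adjusted p = 0.000183) in WT. Ucp2, a carrier of the uncoupling protein family, was the higher one. It had 376, 410.2, 389 and 436 FPKM in KO dexamethasone libraries, against 252, 269, 213 and 199 FPKM in KO vehicle libraries. It was higher, at 0.79 ± 0.12 (SE, adjusted p = 0.000112) in KO and 0.79 ± 0.12 (SE, adjusted p = 0.000168) in WT. Of 17 citric acid cycle genes, 6 were lower and 1 higher in KO, and 3 lower and 1 higher in WT, with Mdh2, malate dehydrogenase, lower, at -0.55 ± 0.074 (SE, adjusted p = 4.26e-05) in KO and at -0.28 ± 0.074 (SE, adjusted p = 0.0113) in WT. Of 14 measured regulators of mitochondrial biogenesis, 1 was lower and 1 higher in KO and 2 were higher in WT, among them Yy1 in both (0.15 ± 0.043 SE, adjusted p = 0.0109, in KO and 0.25 ± 0.043 SE, adjusted p = 0.000529, in WT).

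The promoters were searched for exact matches to 6 binding motifs, on both strands, in the 250 bases before the RefSeq start (GRCm38.p6). A window was given for 74 of the 91 genes. No motif searched is contained in another. The palindromic NRF1 motif occurred in 12 of the 74 windows (16.2%), against 9.03% of 8598 windows of tested genes and 3.86% of all 27025 windows. The GABPA letters CCGGAAG occurred in 14 (18.9%), against 14.9% and 7.05%. The YY1 letters AAGATGGC occurred in none, against 2.198% and 1.59%. The FOXO letters GTAAACA occurred in 2 (2.70%), against 2.09% and 3.09%, and the palindromic glucocorticoid receptor motif in none, against 1 of all windows. The letters TCAAGGTCA of the estrogen-related receptors occurred in 1 window (1.35%), against 0.268% and 0.366%. That window belonged to Atp5g3, 1 of the 3 subunit c genes, and it is shown with the match, read on the other strand, in capitals. It lies at chr2:73911327-73911576, on the minus strand.
Atp5g3 promoter: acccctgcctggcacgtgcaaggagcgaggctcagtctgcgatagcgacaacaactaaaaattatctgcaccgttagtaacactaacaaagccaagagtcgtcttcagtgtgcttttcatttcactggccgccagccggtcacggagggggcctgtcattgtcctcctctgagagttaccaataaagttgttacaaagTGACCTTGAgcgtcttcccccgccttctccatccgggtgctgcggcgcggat
The match began 52 bases before the start. Of the 42 genes with a window that were lower with dexamethasone in at least 1 genotype, 6 held the NRF1 motif and 8 the GABPA letters, and of the other 32, 6 held each. These are matches of letters in a window and say nothing on binding.

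Length and copies bear on the values. Over the 91 genes, the dexamethasone difference correlated with exon length at a Spearman rho of 0.27 in KO and 0.26 in WT, as a description across genes, against 0.047 and 0.095 over 11650 genes. The 46 shorter genes had medians of -0.31 in KO and -0.25 in WT, and the 45 longer genes -0.20 and -0.16. Libraries also differed this way within groups: deviations from the group mean correlated with exon length at -0.39 in KO vehicle replicate 2, -0.36 in KO dexamethasone replicate 1 and -0.30 in WT dexamethasone replicate 3. The part of transcript length in the differences was not tested. Of the 91 genes, 25 shared a stretch with another annotated gene, mostly a pseudogene, at no less than 95% identity over 200 bases or more, and for 4 of them (Atp5l, Cox7a2l, Ndufa12 and Ndufab1) a copy measured at least 10% of the gene's own FPKM. Their values are uncertain, since reads may be counted at either place. The clearest case was Cox7a2l, which links complexes III and IV, beside its processed pseudogene Gm6969. KO dexamethasone replicate 1 had 174 FPKM of Cox7a2l and 122 of Gm6969, whereas the other 3 libraries of the group had 114 to 122 of Cox7a2l and 231 to 249.5 of Gm6969.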

How the data were processed

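RNA sequencing of 16 mouse macrophage libraries was described by 1 deposited table of FPKM values per library, as the authors normalized them. The submitters' processing notes list GRCm38 and mm10 as builds. The tools in the same notes are TopHat2 2.0.12, Bowtie2 2.2.3, DESeq2 and HTSeq 0.6.1. The sources used here do not give what each tool did, which annotation was counted or whether strand was used. Names were taken from GENCODE M21, which covered all but 37 identifiers.

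Groups followed the labels. FPKM values were tested as log2(FPKM + 1) with limma 3.58.1 (R 4.3.3, trended moderated variance, 2-sided, all 16 libraries in 1 fit), after a filter of 1 FPKM in at least 4 libraries. P-values were adjusted by Benjamini-Hochberg over all 11654 genes tested. The pseudocount of 1 understates changes of low genes. Single values were compared by an exact permutation test over libraries. Whole reads were recovered from FPKM and exon length: 97.0% to 97.4% of values under 1000 reads lay within 0.05 of a whole number. As an alternative, voom was run on them with the depths behind the FPKM as library sizes. It therefore does not check the authors' scaling. At 1 FPKM a gene of 2 kb held 33 to 40 reads, which limits the low isoforms. The fit was tested on simulated data with known changes.

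Members, pathway lists and cell type markers were chosen with earlier results of these data known. Named genes were up to 2 higher and 2 lower per complex and comparison with the smallest adjusted p, fixed anchor subunits, isoform families, the highest and lowest member of each complex and genes next to the filter. Of each pathway list, up to 4 called genes with the smallest adjusted p could be named. Alternatives were other pseudocounts and filters, median-ratio and quantile scaling, array weights, only the compared groups, a replicate block, voom, each library left out, the 3 libraries apart in Col1a1 left out, and a stromal covariate. Neutrophil, lymphocyte and erythroid markers had 1 measured gene of 10 each, of which the lymphocyte one was lower with dexamethasone in both genotypes and higher in KO in both treatments, and the others were not called.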

Additional observations from a re-analysis of the deposited data

Results flagged for a closer look

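In 16 of the 204 sets of 4 libraries examined (each named member and each complex sum, by group), 1 library lay far from the other 3. Chance alone sets apart about 1 in 20 such sets. KO vehicle replicate 2 was highest in the summed FPKM of all members, at 5427.5 against 4491.64 to 4600.17 in the others, and of complex IV, at 1907 against 1531 to 1572. It was also highest in Sdha, at 70.6 FPKM against 62.6 to 63.4. KO dexamethasone replicate 1 was highest in the complex III sum, at 462 against 411 to 419, and in Cox7a2l, at 174 FPKM against 114 to 122. KO dexamethasone replicate 2 was highest in Atp5a1, at 192 FPKM against 183 to 184. KO vehicle replicate 4 was highest in Ndufa4l2, at 1.80 FPKM against 0.110 or less.

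Among WT libraries, dexamethasone replicate 3 was highest in Uqcr10, at 119 FPKM against 92.3 to 93.6, and in Cox7a2l, at 123 FPKM against 112 to 114. Dexamethasone replicate 1 was highest in Sdhaf1, at 1.29 FPKM against 0.949 to 1.01. Dexamethasone replicate 4 was lowest in Ndufaf5, at 2.55 FPKM against 2.94 to 3.02. Vehicle replicate 1 was highest in the complex III sum, at 506 against 449.98 to 458. Vehicle replicate 3 was lowest in Atp5g1, at 12.2 FPKM against 13.5 to 13.6, and in Ndufv1, at 26.2 FPKM against 28.2 to 28.5, and highest in Ndufa4, at 64.3 FPKM against 50.1 to 51.6. Vehicle replicate 4 was lowest in Cox6b1, at 147 FPKM against 157 to 159.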

How the results depend on the processing

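Counts of called members are given as higher and lower. With dexamethasone in KO (1 and 44), the higher count was 0 without a filter, 2 with a 5 FPKM filter, 4 with median-ratio scaling, 7 with quantile normalization, 4 with array weights, 2 with only the compared groups and 4 with the stromal covariate. The lower count was 21 with quantile normalization. With dexamethasone in WT (0 and 29), the higher count was 3 with quantile normalization, 2 with array weights, 1 without the 3 libraries and 2 with the covariate. KO against WT in vehicle (4 and 0) had 1 higher with quantile normalization, 26 with array weights, 1 with only the compared groups, 19 without the 3 libraries and 0 with the covariate. Its lower count was 1 with the 5 FPKM filter, with either other scaling and with the covariate, 3 with array weights and 2 without the 3 libraries. KO against WT with dexamethasone (15 and 2) had 25 higher with array weights and 3 with the covariate, and 0 lower with the 5 FPKM filter or the covariate, 10 with array weights and 1 with voom. The interaction (0 and 0) had 1 higher with the 5 FPKM filter, either other scaling, without the 3 libraries or with the covariate, and 2 higher and 4 lower with array weights. The causes of these shifts were not tested.

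With 1 library left out, the counts ranged from 0 to 2 higher and 31 to 45 lower with dexamethasone in KO, and from 0 to 1 and 23 to 37 in WT. They ranged from 0 to 10 and 0 to 1 for KO against WT in vehicle, and from 9 to 18 and 1 to 2 with dexamethasone, the 9 being without WT dexamethasone replicate 1. The interaction gave 0 to 1 higher and 0 to 0 lower. The replicate block gave 1 and 37 with dexamethasone in KO, 0 and 28 in WT, 4 and 0 in vehicle and 14 and 2 with dexamethasone between genotypes, and 0 and 0 for the interaction. Equal replicate numbers showed no clear pairing: 8 of 24 same-number pairs correlated over 0.1, with r from -0.763 to 0.732. The lowest was KO vehicle replicate 4 with WT dexamethasone replicate 4, and the highest KO vehicle replicate 3 with WT vehicle replicate 3. Both pairs hold libraries apart in Col1a1, which could hide a pairing, so this check cannot exclude one. The interaction has no fit with only the compared groups, since it uses all 4. Of 174 named gene and comparison pairs, 50 were past the threshold, and none of these 50 changed direction under any setting. Many of them lost their call in at least 1 setting, Sdhc between genotypes in vehicle in 16 and Ndufs3 with dexamethasone in KO in 11. Some pairs that were not called changed sign, such as Cox7a2l with dexamethasone in KO, from -0.13 to 0.24. Depth limits the low isoforms: Ndufa4l2 had 0 to 139 reads and Cox6b2 2 to 34 in a library.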
